A study of Mus musculus with 12 samples.

Results

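The genes described here are Rnase9, Rnase10, Rnase11, Rnase12 and Rnase13, the members of the RNase A family that are known chiefly from the epididymis. They were found by matching the gene identifiers of the deposited tables to symbols of the GENCODE mouse annotation, release 21, which gave all 5 of 5 genes among 55536, and all 5 passed the filter on low counts that left 19213 genes. RNA-seq had been done on segments 1, 2 and 3 of the epididymis of wild-type (WT) mice, either after efferent duct ligation (a suture closing the ducts that bring fluid and sperm from the testis, placed where they reach the head of the epididymis) or without ligation as control. Each of the 6 groups (control segments 1, 2 and 3 and ligated segments 1, 2 and 3) held 2 libraries of polyadenylated RNA, 1 in sequencing batch 3017 and 1 in batch 3097, and every library pooled 2 mice. The sources used here give neither the age of the mice nor the time after ligation. Nor do they give whether ligated and control tissue came from the same animals, so p-values measure only how these pools vary. Whether segments 1, 2 and 3 of a treatment and batch came from the same 2 mice was not modelled.

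RNase A family proteins are small secreted ribonucleases held together by disulfide bonds. The epididymal branch lacks part of the catalytic residues of its relatives, and its members are studied as proteins of the luminal fluid that bathes maturing sperm. Rnase10 is the best known of them: it is made in the proximal epididymis, and mice without it have sperm that bind the egg coat poorly and pass poorly from the uterus into the oviduct. Its expression there depends on testicular factors that reach the epididymis through the efferent ducts (lumicrine signalling), in which the ligand NELL2 acts on the receptor tyrosine kinase ROS1 and the PEA3 transcription factors Etv1, Etv4 and Etv5 lie downstream.

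Libraries held 30.5 to 42.3 M counts, and levels are given as CPM, counts brought to a common library size, with TMM scaling that corrects for composition. At these depths a count of 3 was worth 0.07 to 0.103 CPM, which covers counting error only. The tissue label was checked with 9 markers of epididymal epithelium, whose summed level was 44820 to 85069 CPM in every library, against at most 0.126 CPM for 5 eosinophil markers (Epx and Prg2 among them), the cells from which several other RNase A genes are known. The 10 germ cell and sperm markers summed to 11.9 to 248 CPM in the controls and to 0.504 to 1.00 CPM after ligation. In segment 1, 5 endothelial markers summed to 65.5 and 68.8 CPM in the controls and 22.5 and 33.6 CPM after ligation, 5 smooth muscle markers to 266 and 333 CPM against 430 and 550 CPM, and 6 macrophage markers to 113 and 129 CPM against 164 and 182 CPM. There, 6 Sertoli and Leydig cell markers summed to 157 and 75.1 CPM in the controls and 42.7 and 28.5 CPM after ligation. Of the 5 of them tested, 1 was higher and 1 lower, beside 24.4% of all genes in each direction. The part of these shifts in the results below was not tested. In bulk tissue, fewer cells of a type and less RNA per cell cannot be told apart.

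All 5 genes lie on chromosome 14 (GRCm38), and none of them overlaps another annotated gene. Rnase10 (ENSMUSG00000021872) occupies 51007751 to 51010758 on the plus strand with 2 transcripts. Rnase9 (ENSMUSG00000052382) follows at 51038459 to 51041869, Rnase11 (ENSMUSG00000059648, a single exon) at 51049451 to 51050163 and Rnase12 (ENSMUSG00000068407) at 51056698 to 51057661, all 3 on the minus strand. Rnase13 (ENSMUSG00000068392, a single exon, minus strand) stands apart at 51921362 to 51922773, 913.6 kb from Rnase10.

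The promoters of Rnase10, Rnase12 and Rnase13 are shown because these are the genes with the largest fall, a modest fall and the largest rise after ligation in segment 1. The sequences are from RefSeq (GRCm38.p6), 5′ to 3′ on the strand of the gene, and hold the bases within 250 of an annotated start that no annotated exon covers. Capitals mark the PEA3 site AGGAAG, searched on both strands and therefore also as CTTCCT, and the half-site of the androgen receptor AGAACA, also as TGTTCT. Every AGGAAG contains the ETS core GGAA. The windows are chr14:51007501-51007750 (plus strand) before the first start of Rnase10, chr14:51007786-51007928 (plus strand) before its second start, inside the first intron of the longer transcript, chr14:51057259-51057492 (minus strand) for Rnase12, inside an intron of its longer transcript, and chr14:51922774-51923023 (minus strand) for Rnase13.
Rnase10, first start: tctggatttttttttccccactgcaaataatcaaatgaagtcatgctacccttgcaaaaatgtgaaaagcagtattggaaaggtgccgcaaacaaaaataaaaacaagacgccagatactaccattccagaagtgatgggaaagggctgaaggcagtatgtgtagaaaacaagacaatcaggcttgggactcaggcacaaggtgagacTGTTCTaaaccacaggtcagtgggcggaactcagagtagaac
Rnase10, second start: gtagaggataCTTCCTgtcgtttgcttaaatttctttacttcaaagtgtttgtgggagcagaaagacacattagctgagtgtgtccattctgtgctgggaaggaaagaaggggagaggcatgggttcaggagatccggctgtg
Rnase12: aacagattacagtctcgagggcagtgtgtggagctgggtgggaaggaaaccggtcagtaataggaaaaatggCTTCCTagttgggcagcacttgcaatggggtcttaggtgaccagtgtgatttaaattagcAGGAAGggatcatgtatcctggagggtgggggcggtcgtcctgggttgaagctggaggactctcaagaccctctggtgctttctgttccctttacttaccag
Rnase13: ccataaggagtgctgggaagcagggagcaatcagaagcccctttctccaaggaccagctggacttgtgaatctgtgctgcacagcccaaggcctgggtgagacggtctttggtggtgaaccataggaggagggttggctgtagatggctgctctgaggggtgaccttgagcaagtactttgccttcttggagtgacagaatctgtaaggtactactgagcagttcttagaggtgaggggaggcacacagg
Before the first start, Rnase10 held 1 half-site of the androgen receptor, beginning 42 bases upstream, and no PEA3 site. Before the second start it held 1 PEA3 site, beginning 133 bases upstream. The full 250 bases before that start, of which the printed window is a part, also held 2 half-sites of the androgen receptor, beginning 220 and 183 bases upstream, the first of which is the half-site found before the first start. Rnase12 held 2 PEA3 sites, beginning 178 and 118 bases upstream. Neither motif was found in the window of Rnase13, nor in those of Rnase9 and Rnase11. Over 32841 RefSeq mouse promoters, 29.5% held AGGAAG in the 250 bases before the start, 16.1% held AGAACA and 93.5% held GGAA, so each match is a description of these letters and no evidence of binding.

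In control tissue the 5 genes followed different courses along the duct. Rnase10 fell from segment to segment, Rnase13 climbed, Rnase11 declined modestly, and Rnase12 stayed within a narrow range. Rnase10 stood at 8717 and 9639 CPM in control segment 1 (batches 3017 and 3097), 3865 and 942 CPM in segment 2, and 259 and 66.5 CPM in segment 3. The libraries of neighbouring segments do not overlap, although those within segment 2 differed 4.10-fold and within segment 3 3.89-fold. By counts Rnase10 ranked 7th and 6th of all genes in the control segment 1 libraries. From segment 1 to segment 3 it decreased by 6.05 ± 0.89 on the log2 scale (SE, edgeR quasi-likelihood test, adjusted p = 0.00227). The steps from segment 1 to 2 (-2.17 ± 0.75, adjusted p = 0.0625) and from 2 to 3 (-3.88 ± 0.80, adjusted p = 0.0739) did not pass the threshold of an adjusted p under 0.05.

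Rnase13, whose function is little known, ran the other way. Its levels were 0.901 and 1.58 CPM in control segment 1, 4.68 and 23.9 CPM in segment 2, and 123 and 447 CPM in segment 3. These groups do not overlap either, and the rise from segment 1 to 3 was 7.73 ± 1.00 on the log2 scale (edgeR, adjusted p = 0.00155). From segment 1 to 2 it rose by 3.40 ± 0.93 (edgeR, adjusted p = 0.0308), a call kept in 6 of 12 fits that each left out 1 library and lost without either control segment 1 library, the control segment 2 library of batch 3097, the ligated segment 1 library of batch 3017 or either ligated segment 3 library (adjusted p = 0.051 to 0.224). From segment 2 to 3 the difference was 4.33 ± 0.81 (edgeR, adjusted p = 0.0645). In segments 2 and 3 alike, the batch 3097 library had less Rnase10 and more Rnase13 than the batch 3017 library.

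Rnase11 was a low-level gene, with 12.02 and 12.8 CPM in control segment 1, 11.3 and 6.70 CPM in segment 2, and 4.46 and 6.29 CPM in segment 3. Segments 1 and 3 do not overlap, and Rnase11 fell between them by 1.20 ± 0.27 on the log2 scale (edgeR, adjusted p = 0.00446). Rnase12 stood at 332 and 442 CPM in control segment 1, 306 and 310 CPM in segment 2, and 195 and 297 CPM in segment 3, and no control comparison passed the edgeR test (-0.65 ± 0.33 from segment 1 to 3, adjusted p = 0.142). DESeq2 called the step from segment 1 to 3 (-0.69, adjusted p = 0.0271), as did edgeR with only the groups compared (-0.66, adjusted p = 0.00201). Rnase9, which encodes a secreted protein found on sperm, was at 8.21 to 15.6 CPM in 5 of the 6 control libraries and at 309.7 CPM in the sixth, control segment 3 of batch 3097. That library sets the mean of its group, 159 ± 213 CPM (SD, n = 2), and without it the fitted difference of control segment 3 from segment 1 turned from 3.85 to -1.02.

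In all, 3 of the 5 genes differed between control segments 1 and 3, where 51.2% of all genes tested did. The corresponding count was 1 of 5 between segments 1 and 2 (43.2% of all genes). Between segments 2 and 3 it was 0 of 5 (1.79%, a share that changed when single libraries were left out). There, 3 of the 5 had an unadjusted p under 0.05 by edgeR, as did 3904 of all 19213 genes. DESeq2 called 2 of the 5, Rnase10 and Rnase13, and 1587 of 15115 genes in all.

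**Figure D1:**
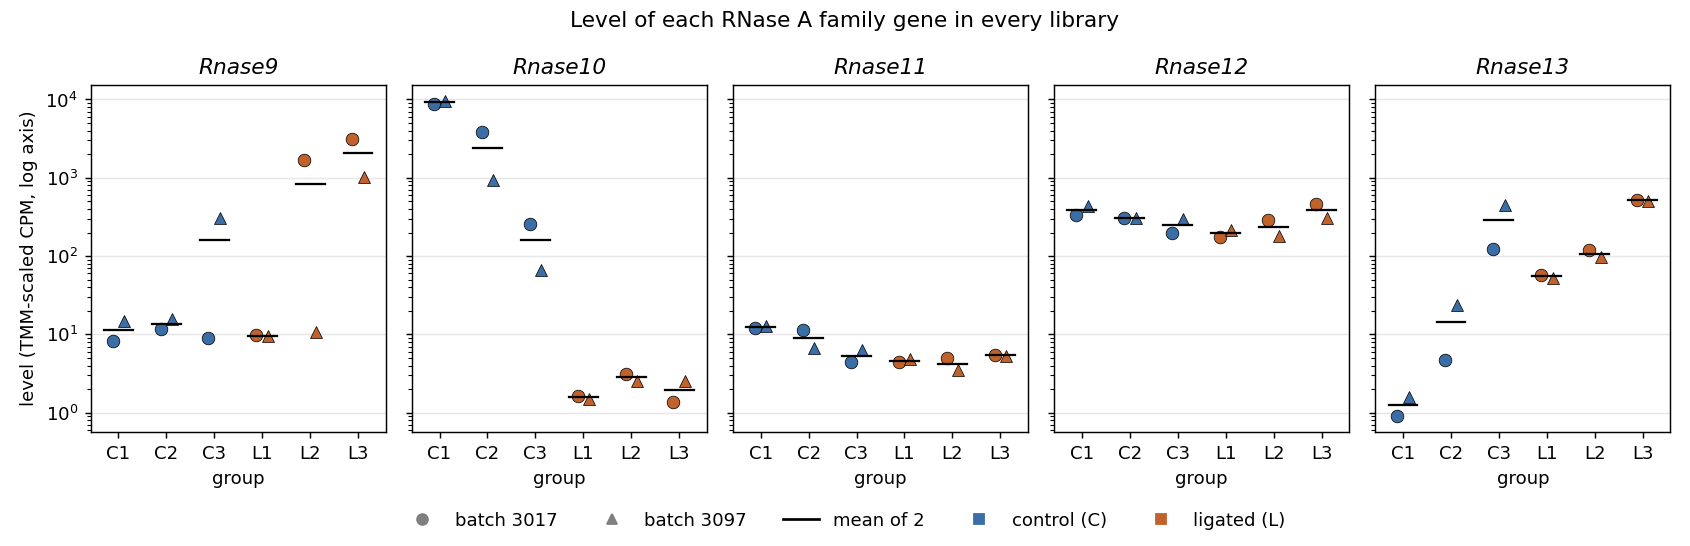
TMM-scaled CPM (log axis) of each gene in the 12 libraries, by group (C1 to C3 control segments, L1 to L3 ligated segments); circles are batch 3017, triangles batch 3097 and lines the mean of 2. Rnase10 descends from 9639 CPM in C1 to under 4 CPM in all 6 ligated libraries, Rnase13 climbs in both series, and Rnase9 is high in 4 libraries only.

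After ligation, Rnase10 was close to absent in all 3 segments. Its levels were 1.66 and 1.48 CPM in ligated segment 1, 3.14 and 2.56 CPM in segment 2, and 1.39 and 2.53 CPM in segment 3. Every ligated library lies below every control library, and the range of ligated segment 1 lies inside that of ligated segment 3. In segment 1 the ratio was 5263-fold lower within batch 3017 and 6497-fold lower within batch 3097, and the gene dropped from rank 7 and 6 to 13008 and 13409 by counts. It fell by 12.58 ± 1.16 on the log2 scale (edgeR, adjusted p = 3.82e-04) and was called in all 12 fits that left out 1 library (-13.05 to -11.98).

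In segment 2, Rnase10 fell by 9.54 ± 1.04 on the log2 scale (edgeR, adjusted p = 0.00667), with within-batch ratios of 1232-fold and 368-fold lower. This call was lost without either ligated segment 2 library (adjusted p = 0.0982 without batch 3017 and 0.0596 without batch 3097) and when only the 2 groups compared were fitted (adjusted p = 0.0542). In segment 3 the gene fell by 6.11 ± 0.93 (edgeR, adjusted p = 0.0408), or 187-fold and 26.3-fold within batches. That call was kept in 1 of 12 such fits, the one without control segment 3 of batch 3097, and the adjusted p ranged from 0.039 to 0.335 over the 12. The direction was the same in all of them.

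Rnase13 moved the opposite way in segment 1. It stood at 57.0 and 52.9 CPM in ligated segment 1, against 0.901 and 1.58 CPM in the control, so that the ligated level of segment 1 lay between those of control segments 2 and 3. The ratio was 63.2-fold within batch 3017 and 33.5-fold within batch 3097. Rnase13 rose by 5.56 ± 0.94 on the log2 scale (edgeR, adjusted p = 0.00466), and all 12 fits that left out 1 library called it (5.03 to 6.04). In segment 2 it was at 119 and 96.9 CPM after ligation, above both control libraries, but the difference of 3.16 ± 0.79 missed the threshold (edgeR, adjusted p = 0.0643). DESeq2 (adjusted p = 3.43e-04), library totals without TMM (0.0498) and a minimum count of 30 (0.0463) placed it past the threshold. In segment 3 the ligated libraries held 525 and 505 CPM against 123 and 447 CPM, and the difference of 1.06 ± 0.72 was not past the test (edgeR, adjusted p = 0.52).

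Rnase11 and Rnase12 had smaller decreases. Rnase11 was at 4.43 and 4.79 CPM in ligated segment 1, below both controls, a fall of 1.43 ± 0.27 on the log2 scale (edgeR, adjusted p = 0.00192) called in all 12 fits that left out 1 library. In ligated segment 2 Rnase11 was at 4.98 and 3.51 CPM, again below both controls, a fall of 1.08 ± 0.27 (edgeR, adjusted p = 0.036). This second call was kept in 3 of 12 such fits, those without control segment 2 of batch 3097 or without either control segment 3 library, and the adjusted p ranged from 0.00318 to 0.288. In segment 3 Rnase11 held 5.47 and 5.31 CPM after ligation, within the range of the controls (-0.01 ± 0.27, edgeR adjusted p = 0.997).

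Rnase12 ran from 175 to 462 CPM over the 12 libraries, the smallest ratio of highest to lowest among the 5. It was at 175 and 216 CPM in ligated segment 1, below both controls, and fell by 0.98 ± 0.33 on the log2 scale (edgeR, adjusted p = 0.0462). The call held in 6 of 12 fits that left out 1 library and was lost without any of the segment 1 libraries or either control segment 2 library (adjusted p = 0.06 to 0.231), and with library totals alone (0.0912) or no filter on low counts (0.133). In segments 2 and 3 its ligated levels were 288 and 179 CPM, then 462 and 310 CPM. Neither difference passed the test (-0.40 ± 0.33, adjusted p = 0.48, and 0.65 ± 0.33, adjusted p = 0.39, edgeR). In segment 3 both ligated libraries lie above both controls.

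Rnase9 differed widely between the 2 libraries of ligated segment 2 and of ligated segment 3. It was at 9.68 and 9.57 CPM in ligated segment 1, at 1675 and 10.7 CPM in segment 2, and at 3147 and 1010 CPM in segment 3. The libraries of ligated segment 2 thus differed 156.7-fold, and that of batch 3017 alone carries the segment 2 difference, 5.86 ± 2.86 on the log2 scale (edgeR, adjusted p = 0.258) with it and -0.68 without it. Within batches the ligated to control ratio in segment 2 was 144-fold in batch 3017 and 0.683-fold in batch 3097. DESeq2 called this difference (adjusted p = 0.0146). In segment 3 both ligated libraries exceeded both controls, at 351-fold in batch 3017 and 3.26-fold in batch 3097, and the difference of 3.60 ± 2.61 did not pass the test (edgeR, adjusted p = 0.55). In segment 1 the groups overlap (-0.27 ± 2.33, edgeR adjusted p = 0.94).

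**Figure D2:**
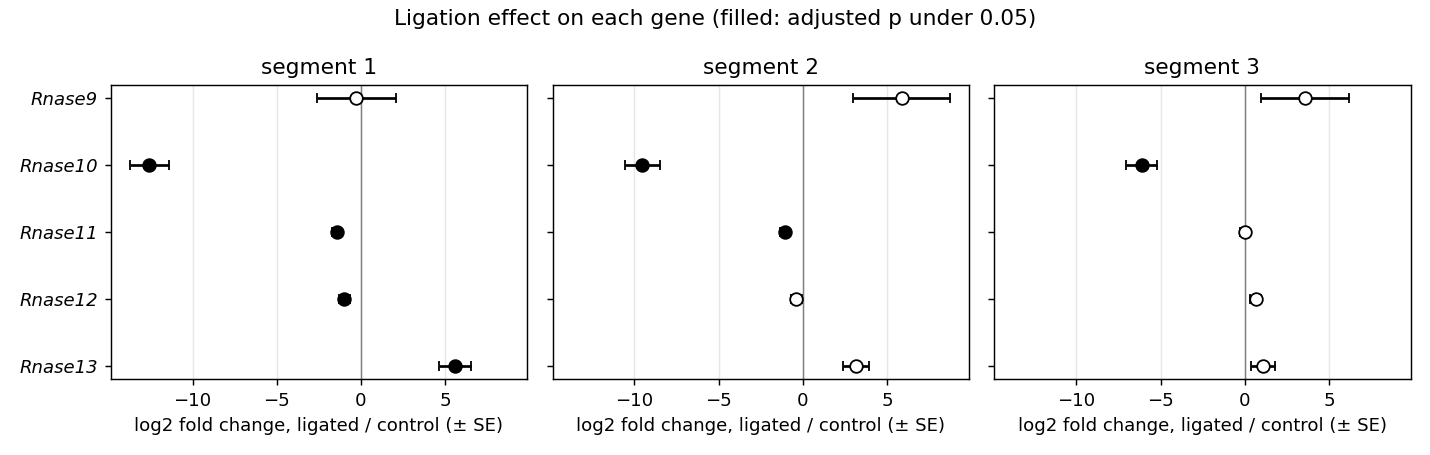
Log2 fold change of ligated over control for each gene in segments 1, 2 and 3, with bars of 1 SE from edgeR; filled points passed an adjusted p of 0.05. Rnase10 is lowered in each segment (-12.58, -9.54 and -6.11), Rnase13 is raised past the test in segment 1 (5.56), and the bars of Rnase9 are the widest (SE 2.33 to 2.86).

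Counted over the 5 genes, 4 changed in segment 1 (3 lower, 1 higher), where 48.7% of all genes tested were called, 24.4% lower and 24.4% higher. In segment 2, 2 of 5 were called, both lower, against 9.86% of all genes (7% lower, 2.87% higher). That share depends on single libraries, at 0.733% without ligated segment 2 of batch 3017 and 20.1% without control segment 2 of batch 3097. In segment 3, 1 of 5 was called, lower, against 1.72% (1.41% lower, 0.312% higher). The median log2 change of the 5 genes was -0.98, -0.40 and 0.65 in segments 1, 2 and 3, and that of all genes tested 0.03, 0.00011 and -0.01.

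Whether ligation acted unequally along the duct was tested as the difference of the effects between segments. Between segments 1 and 3, 4 of 5 genes differed, against 30.7% of all genes. The change of Rnase10 was more negative in segment 1 than in segment 3 (difference -6.46 ± 1.20, edgeR adjusted p = 0.0107). So was that of Rnase11 (-1.42 ± 0.38, adjusted p = 0.0189), which was near 0 in segment 3, and that of Rnase12 (-1.64 ± 0.47, adjusted p = 0.0388), which was 0.65 there. The change of Rnase13 was more positive in segment 1 (4.50 ± 1.16, adjusted p = 0.0334). The control levels that enter these differences were themselves unequal: Rnase10 had 9178 ± 652 CPM to lose in segment 1 and 163 ± 136 CPM in segment 3 (SD, n = 2). Of the 12 fits that left out 1 library, 11 kept the call for Rnase10, 8 for Rnase11, 5 for Rnase12 and 4 for Rnase13. Between segments 1 and 2, 0 of 5 differed (18.5% of all genes). There, 1 of the 5 had an unadjusted p under 0.05 by edgeR, beside 6490 of all 19213 genes. DESeq2 called 1 of the 5, Rnase10, and 3962 of 17350 genes in all. Between segments 2 and 3, edgeR called 0 of 5 and 0% of all genes. Its unadjusted p was under 0.05 for 2 of the 5 and for 1917 of all 19213 genes. DESeq2 called 0 of the 5 and 165 of 13998 genes in all.

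Among the ligated segments themselves, no pair gave a call for any of the 5 genes. The shares of all genes called were 1.3% between ligated segments 1 and 2, 0% between 2 and 3, and 5.8% between 1 and 3. In these pairs the 5 genes had 0, 1 and 3 unadjusted p-values under 0.05, with 1, 0 and 3 DESeq2 calls. Of all 19213 genes, 2619, 1344 and 4362 had such a p-value. DESeq2 called 527 of 19213, 32 of 19213 and 1724 of 18468 genes. From ligated segment 1 to 3 the differences were 3.22 ± 0.76 for Rnase13 (edgeR, adjusted p = 0.0719), 7.72 ± 2.98 for Rnase9 (0.21) and 0.98 ± 0.33 for Rnase12 (0.143). All libraries of ligated segment 3 lay above those of ligated segment 1 for these 3 genes. Rnase10 showed 0.42 ± 0.88 (edgeR, adjusted p = 0.84) where the controls had fallen by 6.05.

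Ranked by mean level over the 6 groups, Rnase10 ran from control segment 1 through control segments 2 and 3 to ligated segments 2, 3 and 1, and of the neighbours in this order only ligated segments 3 and 1 overlapped. Rnase13 was highest in ligated segment 3, followed by control segment 3, ligated segments 2 and 1 and control segments 2 and 1, with no overlap between neighbours. Rnase11 was highest in control segment 1, then control segment 2, each separate from the next. Ligated segment 3, control segment 3 and ligated segments 1 and 2 followed, each overlapping the next. For Rnase12 the order was control segment 1, ligated segment 3, control segments 2 and 3 and ligated segments 2 and 1, and only control segments 2 and 3 were separate neighbours. For Rnase9 it was ligated segments 3 and 2, control segments 3, 2 and 1 and ligated segment 1, and every pair of neighbours overlapped.

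Compared per kb of exon, which allows levels of different genes to be set side by side, Rnase10 was first in control segment 1 at 5512 CPM per kb. Rnase12 followed with 574, Rnase11 with 17.4, Rnase9 with 9.63 and Rnase13 with 0.878 CPM per kb. No gene's libraries overlapped those of its neighbour in this order; those of Rnase9, for example, were at 6.91 and 12.4 CPM per kb and those of Rnase11 at 16.9 and 17.9. In ligated segment 3 the order was Rnase9 (1748 ± 1271 CPM per kb, SD, n = 2), Rnase12 (573), Rnase13 (365), Rnase11 (7.56) and Rnase10 (1.18). The gap between Rnase9 and Rnase12 there is smaller than the SD of Rnase9.

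As a share of all RNase A family RNA per kb, Rnase10 made up 90.6% and 89.1% in control segment 1, 82.1% and 52.1% in segment 2, and 27.6% and 3.68% in segment 3. After ligation it made up 0.0223% to 0.412%. The leading gene of ligated segment 1 was Rnase12, at 75.6% and 79.1%. In ligated segment 3 it was Rnase9, at 70.9% and 50.1%, and in ligated segment 2 the batches disagreed, with Rnase9 leading in batch 3017 (72.3%) and Rnase12 in batch 3097 (71.3%). The 5 genes together were 91.8% to 99.6% of the family in every library, and their part of all counts went from 0.856% and 0.933% in control segment 1 to 0.0264% and 0.0309% in ligated segment 1.

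**Figure D3:**
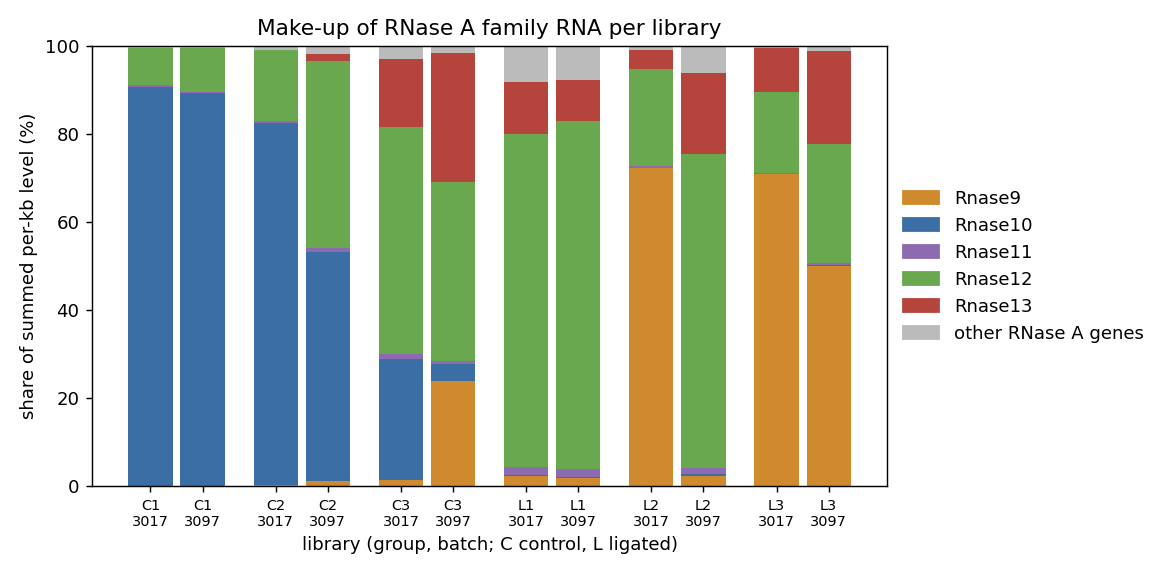
Share of the summed per-kb level of RNase A family genes held by each gene, in percent, 1 bar per library (C control, L ligated, batch beneath). Rnase10 fills 90.6% and 89.1% of the bars of C1, Rnase12 most of L1, and Rnase9 72.3%, 70.9% and 50.1% in 3 ligated libraries.

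The rest of the family was scarce. Of 19 other RNase A genes listed, 15 were in the tables and 4 passed the filter: Rnase4, Rnase6, Ang and Rnase1. Rnase6, an antimicrobial ribonuclease known from macrophages, was at 2.43 and 3.49 CPM in control segment 1 and at 16.2 and 15.03 CPM after ligation. It rose by 2.43 ± 0.18 on the log2 scale there (edgeR, adjusted p = 1.65e-05) and by 0.88 ± 0.17 in segment 2 (adjusted p = 0.0137). Of the 6 macrophage markers, 2 were higher in segment 1 and 0 in segment 2 (median log2 change 0.15 and 0.04), with sums in segment 2 of 88.3 and 118 CPM in the controls and 140 and 208 CPM after ligation, and their part was not tested. Rnase4 and Ang, which encodes angiogenin, share a locus and exons, so reads between them are uncertain, and neither was called in any segment after ligation. Rnase1, the pancreatic-type enzyme, differed by 3.20 ± 1.15 in segment 1 (edgeR, adjusted p = 0.0505). Its levels there were 0.0505 and 0.240 CPM per kb in the controls and 0.941 and 1.66 CPM per kb after ligation, so the fold rests on few counts. The 2 libraries of control segment 2 were at 1.98 and 0.130 CPM per kb. The median over the 4 was 1.52, -0.21 and 0.19 in segments 1, 2 and 3. Rnh1, the cytosolic inhibitor that binds RNase A enzymes, was at 265 to 357 CPM in all 12 libraries and was not called (0.10 ± 0.11 in segment 1, edgeR adjusted p = 0.48).

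The other genes of the lumicrine pathway were taken from a list of 11, of which 10 were in the tables and 9 were tested. After ligation 8 were lower and 0 higher in segment 1, 5 lower in segment 2 and 1 lower in segment 3, with medians of -5.75, -2.74 and -1.10. Among all genes tested, 24.4%, 7% and 1.41% were lower. The 4 most abundant were Adam28, Ovch2, Ros1 and Etv5. Ovch2, the protease that acts with Rnase10 on sperm ADAM3 maturation, was at 3113 and 3169 CPM in control segment 1 and at 34.9 and 35.5 CPM after ligation (-6.48 ± 0.41, edgeR adjusted p = 4.08e-05). Etv5, a PEA3 factor, went from 966 and 810 CPM to 1.66 and 1.96 CPM (-8.97 ± 1.10, adjusted p = 0.00135). Ros1, the receptor, went from 698 and 722 CPM to 149 and 180 CPM (-2.11 ± 0.25, adjusted p = 3.36e-04). Adam28, a metalloprotease gene, went from 8193 and 7499 CPM to 62.3 and 84.3 CPM (-6.75 ± 1.36, adjusted p = 0.00929). Rnase10 fell by 12.58 in the same comparison. In segment 3, Etv5 differed by -3.33 ± 0.95 (edgeR, adjusted p = 0.194), Adam28 by -3.17 ± 1.20 (0.294), Ovch2 by -0.86 ± 0.33 (0.272) and Ros1 by 0.05 ± 0.24 (0.952). Adam3, the gene of the sperm protein, was the 1 gene of the list past the test there. All 10 germ cell and sperm markers were also lower in segment 3 (median -8.30). The part of lost sperm RNA in the fall of Adam3 was not tested. Whether the changes of the listed genes differ from that of Rnase10 was not tested.

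Of 20 secretory genes of caput principal cells, the cells that line the duct, 10 fell and 3 rose in segment 1, 9 fell and 1 rose in segment 2, and none passed the test in segment 3. Among all genes, 24.4% were lower and 24.4% higher in segment 1, and 7% and 2.87% in segment 2. The median log2 changes of the 20 were -3.19, -1.48 and -0.64.

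Around the 5 genes, 55 other annotated genes reach into the span from 50 kb before Rnase10 to 50 kb past Rnase13. Of these, 13 passed the filter. In segment 1, 3 of these were higher and 4 lower after ligation, in segment 2, 1 higher and 4 lower, and in segment 3, 0 higher and 1 lower. The 7 of 13 called in segment 1 stand beside 48.7% of all genes, so the number changed in that segment is near the background. In segment 2, the 1 higher and 4 lower of 13 stand beside 2.87% and 7% of all genes. In segment 3, the 1 lower of 13 stands beside 1.41%. Whether these neighbours exceed the background in segments 2 and 3 was not tested. In segment 1 the 4 lower ones sit before Rnase10. Pnp2 is a purine nucleoside phosphorylase gene whose lower end lies 51.8 kb before that of Rnase10. It fell by 7.39 ± 0.34, 4.25 ± 0.32 and 3.20 ± 0.45 on the log2 scale in segments 1, 2 and 3 (edgeR, adjusted p = 3.88e-06, 1.99e-04 and 0.0077). Its paralog Pnp fell by 2.51 ± 0.17 in segment 1 (edgeR, adjusted p = 1.12e-05) and by 1.75 ± 0.16 in segment 2 (5.21e-04). Pnp2 lies within the annotated span of Pnp on the same strand, so reads between them are uncertain and their falls may not be separate. The remaining pair that fell in segment 1, Gm8518 and Gm49038, are processed pseudogenes whose reads may belong to copies elsewhere.

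Past Rnase12 the called neighbours were higher in segment 1. Eddm3b, an epididymal secretory gene, rose by 2.39 ± 0.16 (edgeR, adjusted p = 1.20e-05). Ndrg2, near Rnase13, rose by 3.03 ± 0.39 (edgeR, adjusted p = 0.00106) in the segment where Rnase13 rose, and Tppp2, between them, did not pass the test there (0.08 ± 1.09, adjusted p = 0.96) but fell by 3.69 ± 0.86 in segment 2 (adjusted p = 0.0359). Rnase9, Rnase11 and Rnase12, which lie 30.7, 41.7 and 48.9 kb from Rnase10, had log2 changes of -0.27, -1.43 and -0.98 in segment 1, against -12.58 for Rnase10.

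**Figure D4:**
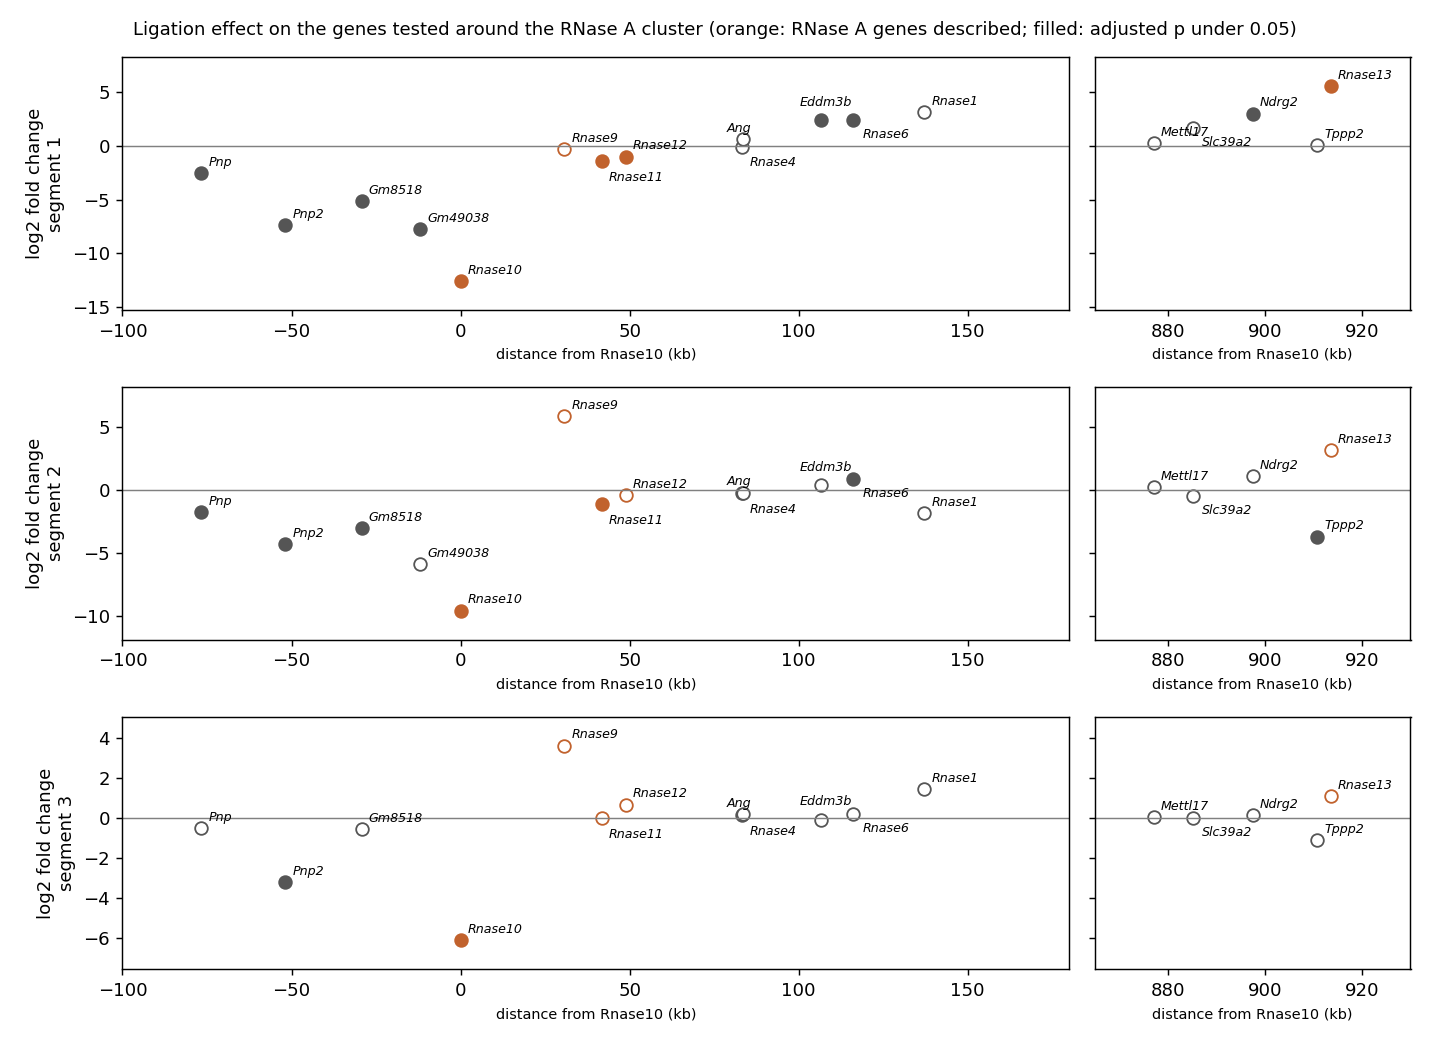
Log2 fold change after ligation of each tested gene around the cluster against the distance of its lower end from that of Rnase10 (kb), by segment, with a break before Rnase13; orange points are the 5 genes and filled points passed an adjusted p of 0.05. Genes before Rnase10 fell in segment 1 and those past Rnase12 that were called rose. Gm49038 is not drawn in segment 3, where its fit gave no usable error.

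The 5 genes did not share a common profile. Over the 12 libraries the Pearson correlation of log2 levels was 0.86 between Rnase10 and Rnase11, -0.80 between Rnase10 and Rnase13, and -0.80 between Rnase11 and Rnase13. It was 0.65 between Rnase9 and Rnase13 and 0.67 between Rnase11 and Rnase12. These are descriptions across libraries that share batches and segments.

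By the same measure, each gene was compared with 11210 genes that reached a mean of 5 CPM in some group. The 5 closest to Rnase10 were Lcn9 (r = 0.99), Asb18 (0.99), Etv5 (0.99), Hgfac (0.99) and Teddm1a (0.98). Lcn9, an epididymal lipocalin, was at 8228 and 8939 CPM in control segment 1 and at 0.956 and 0.896 CPM after ligation, levels near those of Rnase10. Closest to Rnase13 were Rprml (0.99), Egf (0.99), Nxpe5 (0.99), Tfap2c (0.99) and Spink2 (0.99). Spink2, a protease inhibitor, climbed from 4.66 and 5.21 CPM in control segment 1 to 82.4 and 200.1 CPM in segment 3 and was at 37.9 and 29.6 CPM in ligated segment 1. When the 6 group means were correlated in place of the libraries, 3 of the 5 genes stayed among the closest 5 for Rnase10 and for Rnase13. Teddm1a (rank 13) and Etv5 (rank 16) dropped out for Rnase10, and Nxpe5 (rank 19) and Spink2 (rank 42) for Rnase13. All these genes were chosen for their likeness over the same libraries, so that their levels run alike follows from the choice.

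For Rnase9 the closest were AY761185 (0.98), Mbnl3 (0.97), Hal (0.96), Dsc2 (0.96) and BC048679 (0.96). They were high in the same libraries: BC048679 stood at 471 and 2.99 CPM in ligated segment 2, at 635 and 48.2 CPM in ligated segment 3 and at 9.90 CPM in control segment 3 of batch 3097, where its batch 3017 counterpart had 1.42 CPM. Mbnl3, a splicing regulator, was at 126 and 7.60 CPM in ligated segment 2 and at 16.0 and 102 CPM in control segment 3. These genes were chosen for their likeness to Rnase9 over the same libraries, so that they share its contrast between libraries follows from the choice. For Rnase11 the closest were Eid1, Becn1, B3galt1, Bpgm and Rtcb (0.96 to 0.97), and those for Rnase12 included Mcfd2, Tmem203, Fam173b and Ccdc28a (0.86 to 0.90). For Rnase9, Rnase11 and Rnase12, 1 of the 5 stayed among the closest 5 over group means.

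**Figure D5:**
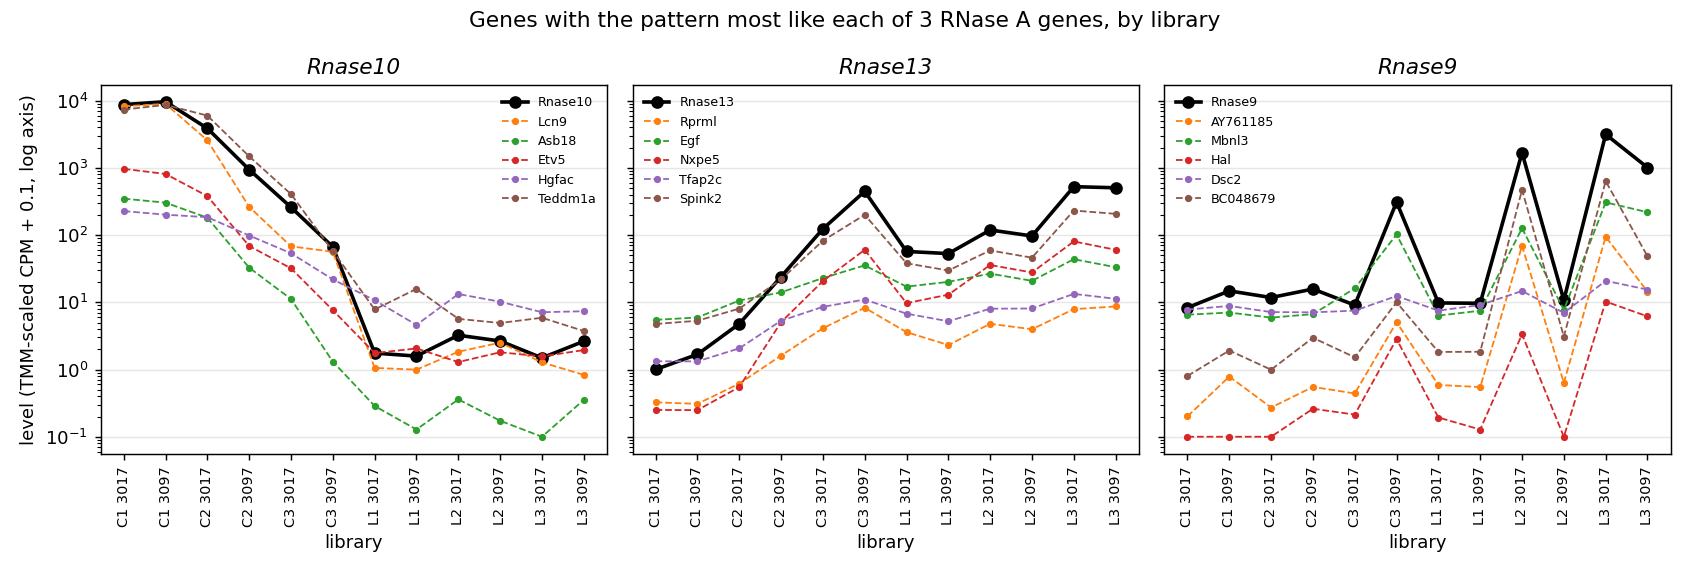
TMM-scaled CPM plus 0.1 (log axis) in each library for Rnase10, Rnase13 and Rnase9 (black) and the 5 genes whose profile over 12 libraries was most like each (dashed). Rnase9 and BC048679 are high in ligated segment 2 of batch 3017 (1675 and 471 CPM) and near the floor of their range in batch 3097 (10.7 and 2.99 CPM).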

How the data were processed

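The deposited values are raw counts of reads by gene, whole numbers that the authors had not normalized, for 12 libraries (6 groups of 2, 1 per sequencing batch). Per the submitters' processing notes, Trim Galore 0.6.0, cutadapt, FastQC and STAR 2.7.0e were used with GRCm38 (mm10). The way reads were counted, its strand option and the annotation were not given in the sources used here. Per the labels' protocols, the libraries were directional and made from 500 ng of polyA-selected RNA, each from 2 mice. Libraries are named by group and batch because the replicate numbers of the labels were not tied to the columns.

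Counts were fitted with edgeR 4.0.16 (R 4.3.3): filterByExpr with a minimum count of 10, TMM, glmQLFit with robust dispersion and glmQLFTest (two-sided) on all 12 libraries with group and batch, Benjamini-Hochberg adjustment over 19213 genes and a threshold of 0.05. The standard error is the log2 fold change divided by the root of F. Residual degrees of freedom were 5. Batch was the block because the design text gives it: same-batch deviations correlated between groups at 0.083 to 0.55, and 1798 genes but 0 of the 5 described differed between batches. The 2 libraries of every group varied beyond counting error (chi-square per degree of freedom 22.6 to 116). Within-batch folds are ratios of CPM. Per-kb levels use the length of the merged exons. The script was tested on simulated data.

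Named genes are the 5 members, in each other list the 4 with the highest mean CPM, the tested genes within 50 kb, and per member the 5 with the highest Pearson r of log2 CPM (prior count 2). Of the last, 1 gene is not reported here. Adam3, Pnp2, Pnp, Eddm3b, Ndrg2, Tppp2 and the pseudogenes were singled out after their values were seen. The members and lists were chosen with earlier results of these data known. Alternatives were DESeq2 1.42.0, other scalings and filters, no batch term, only the groups compared, and leaving out each library.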

Additional observations from a re-analysis of the deposited data

Results flagged for a closer look

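The effect of ligation differed between segments 1 and 3 by the test of the difference itself for 4 of the 5 genes (edgeR, adjusted p = 0.0107 to 0.0388). The difference of the log2 changes, segment 1 minus segment 3, was -6.46 for Rnase10, -1.42 for Rnase11, -1.64 for Rnase12 and 4.50 for Rnase13. In each case the change in segment 1 was the larger in size. The call for Rnase10 was lost without ligated segment 1 of batch 3017 (adjusted p = 0.0587), and that for Rnase11 without control segment 1 of batch 3097, control segment 3 of batch 3017, ligated segment 1 of batch 3017 or ligated segment 3 of batch 3097 (0.0625 to 0.0832). That for Rnase12 was kept without control segment 1 of batch 3017, control segment 3 of batch 3097, ligated segment 3 of batch 3097 or either ligated segment 2 library, and lost without any other (0.077 to 0.15). That for Rnase13 was kept without either control segment 2 library, control segment 3 of batch 3017 or ligated segment 2 of batch 3097, and lost without any other (0.0501 to 0.123). The 5 genes were not tested for libraries far from the others, since each group has 2.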

How the results depend on the processing

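Without the replicate block (batch term left out), the number of the 5 genes called was the same in all 12 comparisons, as it was with RLE scaling. Over all genes, the calls without the block went from 1895 to 1162 in segment 2, from 343 to 0 in control segment 3 against 2, from 249 to 112 in ligated segment 2 against 1, from 1115 to 577 in ligated segment 3 against 1 and from 3561 to 2255 in the effect of segment 1 against 2. Library totals alone gave 3 of the 5 genes in segment 1 (9635 of 19213 genes in all) and 3 in segment 2 (2669 of 19213). They gave 3 in the effect of segment 1 against 3 (5859 of 19213). DESeq2 called 4 in segment 2 after ligation, beside 2562 of 19213 genes in all. It called 2 in control segment 2 against 1 (7702 of 19213) and 2 in control segment 3 against 2 (1587 of 15115). Control segment 3 against 1 gave 4 (9065 of 19213) and ligated segment 2 against 1 gave 1 (527 of 19213). Ligated segment 3 against 1 gave 3 (1724 of 18468) and the effect of segment 1 against 2 gave 1 (3962 of 17350). With only the groups compared in the fit, 0 were called in segment 2 (149 of 17335 genes in all) and 0 in segment 3 (211 of 17449). Control segment 3 against 2 gave 2 (162 of 17280) and control segment 3 against 1 gave 4 (9159 of 17589). Ligated segment 2 against 1 gave 1 (1194 of 17472) and ligated segment 3 against 2 gave 2 (1080 of 17310). Ligated segment 3 against 1 gave 2 (1542 of 17488). With no filter on low counts, 3 were called in segment 1 (8679 of 33148 genes in all) and 0 in segment 3 (404 of 33148). Control segment 2 against 1 gave 0 (7470 of 33148) and the effect of segment 1 against 3 gave 2 (5193 of 33148). A minimum count of 30 gave 3 in segment 2 (1728 of 16038 genes in all). It gave 2 in control segment 2 against 1 (7821 of 16038) and 1 in control segment 3 against 2 (371 of 16038). The cause of these changes was not tested. The fits of only the groups compared also held fewer samples, and the part of that was not tested either.

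Leaving out 1 library at a time gave 3 to 4 genes called in segment 1, 0 to 2 in segment 2 and 0 to 1 in segment 3. The number called also changed with the library left out in control segment 2 against 1 and in control segment 3 against 2. It did not change in control segment 3 against 1, in the pairs of ligated segments or in the effect of segment 1 against 2. For the effects of segment 1 against 3 and of segment 2 against 3 it changed. In each of these comparisons the share of all genes called changed as well. The share of all genes called ranged from 31.1% to 49.4% in segment 1, 0.733% to 20.1% in segment 2 and 0.348% to 2.48% in segment 3, and from 0% to 11.8% in control segment 3 against 2.

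The log2 change of Rnase11 in segment 3, near 0, turned positive with no replicate block (0.0035), library totals alone (0.031), no filter (0.0081), a minimum count of 30 (0.00296) and only the groups compared (0.022), and ranged from -0.32 to 0.39 without 1 library. Other signs turned without 1 library, all of differences that were not called. For Rnase9 the ranges were -0.83 to 0.48 in segment 1, -0.68 to 7.31 in segment 2, -0.29 to 1.03 in control segment 2 against 1, -1.22 to 4.85 in control 3 against 2, -1.02 to 5.06 in control 3 against 1, -0.22 to 7.75 in ligated 2 against 1, -0.069 to 8.14 in ligated 3 against 2, -7.47 to 0.52 in the effect of segment 1 against 2 and -4.89 to 3.46 in that of 2 against 3. Rnase10 ranged from -1.51 to 0.30 in ligated 3 against 2 and from -0.64 to 1.18 in ligated 3 against 1, Rnase11 from -0.38 to 0.11 and Rnase12 from -0.20 to 0.65 in ligated 2 against 1.

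The ligated levels of Rnase10 rest on 53 to 121 counts per library, so its fold carries that counting error. With 2 pools a group, the spread of a group is estimated together with the others.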
